A study of Mus musculus with 3 samples.

Results

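Pericytes and smooth muscle cells, the mural cells of blood vessels, were followed in droplet single-cell RNA-seq libraries of bone from mice aged 3 weeks. Cells were taken as members when they carried at least 10 unique molecular identifiers (UMIs, each a captured RNA molecule) of Rgs5 or at least 5 of Myh11, at most 1 UMI of the endothelial genes Pecam1 and Cdh5 together, at most 1 of the haematopoietic genes Laptm5 and Tyrobp together, and none of Sstr2, a marker of septoclasts, the matrix-resorbing cells that the study describes. This rule gave 124 of the 15628 cells that passed the filters of the study. The members were 19 of 2382 cells in metaphyseal replicate 1, 20 of 2004 in metaphyseal replicate 2 and 85 of 11242 in the Pdgfra-GFP library.

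The metaphyseal libraries hold cells of the metaphysis, the region below the growth plate, dissected from untreated wild-type C57BL/6J males and depleted of haematopoietic lineage, CD45 and CD117 cells with magnetic beads. The Pdgfra-GFP library holds GFP+ cells sorted from the metaphysis-epiphysis region of femur and tibia. The mice were untreated male Pdgfra-H2B-GFP heterozygous knock-in mice on the C57BL/6 strain, in which the Pdgfra locus drives a nuclear GFP. The number of mice behind each library is not given in the sources used here, so p-values measure the spread between these libraries only. With 1 sorted library, the sort, the bone region, the mice and any difference in the version of the droplet kit, which the sources used here do not settle for each library, cannot be told apart. The libraries held 25243314, 22082735 and 91747759 UMIs in the order metaphyseal replicate 1, metaphyseal replicate 2 and Pdgfra-GFP, the order used for all values below.

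Pericytes sit within the basement membrane of capillaries and sinusoids, in direct contact with the endothelium, while smooth muscle cells wrap arterioles and arteries. Both take up platelet-derived growth factor signals from the endothelium through Pdgfrb and need Notch3 to mature. Smooth muscle contracts through actin and myosin under the control of calcium, nitric oxide and cyclic nucleotides, and pericytes share part of this machinery together with an ATP-sensitive potassium channel. Bone marrow also holds far more numerous perivascular stromal cells that carry Pdgfrb and Lepr and secrete Cxcl12, which maintain haematopoietic stem cells and are not mural cells in the strict sense.

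Members made up 0.798% of cells in metaphyseal replicate 1 (exact 95% binomial interval 0.481 to 1.24%), 0.998% in metaphyseal replicate 2 (0.611 to 1.54%) and 0.756% in the Pdgfra-GFP library (0.604 to 0.934%). These intervals overlap and cover counting error only. All but 1 member entered through Rgs5, a regulator of G protein signalling, and the median member held 55, 106 and 60 Rgs5 UMIs. Of the 22, 20 and 91 cells past the Rgs5 or Myh11 limit, the haematopoietic limit removed 2, 0 and 0, the Sstr2 limit 1, 0 and 5, and the endothelial limit 0, 0 and 1. Just inside the limit, at 10 to 14 Rgs5 UMIs and fewer than 5 of Myh11, lay 0, 1 and 13 members, and just outside it, at 5 to 9 UMIs, lay 0, 2 and 19 cells. In the Pdgfra-GFP library the 13 members just inside carried Notch3 at 132 and Acta2 at 265 CPM. CPM are the UMIs of the gene divided by all UMIs of the summed cells and scaled to the same total in every sum. The 19 cells just outside carried 68.4 and 58.6 CPM. Most of the Acta2 inside came from 1 member with 23 Acta2 UMIs, and 1 other member held 6 Notch3 UMIs. These levels thus do not rank the 2 sides of the limit. The median member had 6190, 7019.5 and 5517 UMIs over 2481, 2733 and 2229 genes. Scrublet called 0, 0 and 2 members as doublets. Over all kept cells it called 1.09%, 0.848% and 1.45%, below the 1.91%, 1.60% and 8.99% expected, so doublets may remain uncalled. In kept cells 0, 9 and 10 barcodes were shared between metaphyseal replicates 1 and 2, metaphyseal replicate 1 and Pdgfra-GFP, and metaphyseal replicate 2 and Pdgfra-GFP. With barcodes drawn at random, 0.703, 3.94 and 3.32 were expected, and the difference was not tested. Among the shared barcodes was that of 1 Pdgfra-GFP member, which was also that of a kept cell outside the members in metaphyseal replicate 1.

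The counts of all members of a library were summed and set against 3 other populations of the same library. The first comparator was the other Pdgfrb+ cells, with at least 2 Pdgfrb UMIs, the same negative limits and no place among the members (681, 631 and 3140 cells). The second was Lepr Cxcl12 stromal cells, with at least 20 Cxcl12 UMIs and at least 2 of Lepr and Adipoq together (742, 694 and 4483 cells). The third was endothelial cells, with at least 5 UMIs of Pecam1 and Cdh5 together (1093, 856 and 217 cells). The first 2 comparators share many cells: 93.4%, 95.2% and 78.8% of the other Pdgfrb+ cells also met the Lepr Cxcl12 rule. The genes of the gates were described and not counted, and since the members were picked on counts of these same cells, the comparisons list the genes that go with Rgs5 and Myh11.

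Against the other Pdgfrb+ cells, edgeR's quasi-likelihood test with the library as a block called 1736 of 12965 genes at an adjusted p under 0.05, which is 13.4% of the genes tested, 723 higher (5.58%) and 1013 lower (7.81%) in members. The median log2 fold change of all genes was -0.15. The 3 mural markers that the gate did not use were all called higher in this comparison. Acta2, smooth muscle actin, was at 3768, 2338 and 2939.7 CPM in members and 29.5, 31.8 and 84.6 CPM in other Pdgfrb+ cells. Its log2 difference was 6.01 ± 0.40 (SE, 3 libraries; adjusted p = 3.8e-07). Tagln, the actin-binding protein transgelin, was at 1897, 924 and 1300.4 CPM against 51.1, 53.2 and 62.0 CPM, and Mcam (CD146), an adhesion molecule of mural and endothelial cells, at 279, 228 and 315 CPM against 4.65, 4.44 and 6.78 CPM. For each of the 3 genes the lowest library of members stood above the highest library of the comparator. The share of all genes tested that do so was not counted, so this only describes the values. Rgs5 itself, as a description, was at 9908, 15251 and 10994 CPM against 11.4, 15.8 and 16.2 CPM, and Myh11, smooth muscle myosin heavy chain, at 373, 372 and 227 CPM against 1.63, 1.48 and 1.25 CPM. Pdgfrb was at 898, 979 and 498 CPM in members and 710.3, 733 and 620.2 CPM in the cells chosen for it.

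**Figure D1:**
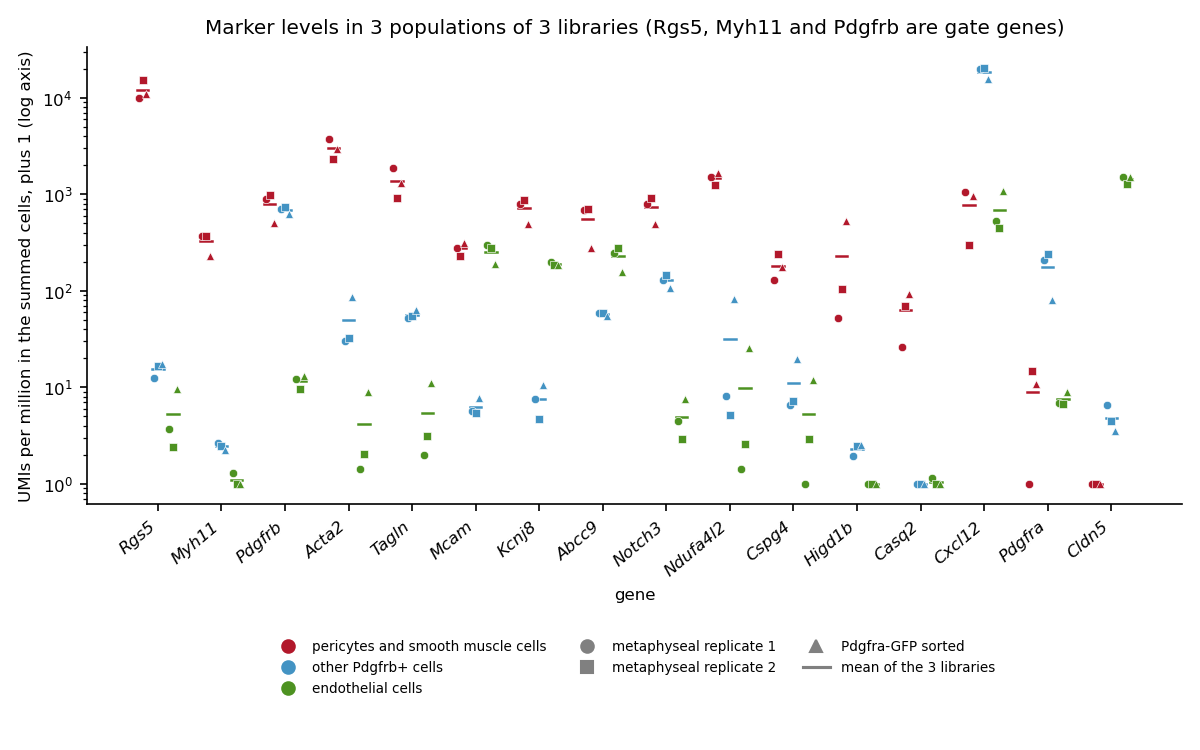
Levels of 16 marker genes (CPM in the summed cells plus 1, log axis, so that 0 plots at 1) in members, other Pdgfrb+ cells and endothelial cells, one point per library and a bar at the mean. Acta2 and Tagln stand apart in members, while Kcnj8 stands apart from other Pdgfrb+ cells but is also present in endothelial cells. Pdgfrb is shared with the first comparator, and Cldn5 is at 0 in all 3 libraries of members.

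Most genes of the contractile apparatus were higher in members. Of 24 genes of this list that were tested, 18 were called higher and 2 lower, with a median log2 difference of 1.37. Beside Acta2 and Tagln, the called genes included Tpm2, a tropomyosin, at 1558, 973 and 1519 CPM against 241, 199 and 297 CPM (log2 difference 2.33 ± 0.27, adjusted p = 4.5e-05). Myl9, the regulatory light chain of smooth muscle myosin, was at 1287, 593 and 1590.0 CPM against 267, 266 and 358 CPM (log2 difference 1.72 ± 0.35, adjusted p = 0.0042). The called genes with the most UMIs included Cald1, caldesmon, at 1567, 1842 and 2022 CPM against 915, 915 and 972 CPM (log2 difference 0.84 ± 0.13, adjusted p = 0.00059), and Myl6, the essential myosin light chain, at 2498, 2228 and 3474 CPM against 1208, 1118 and 1743 CPM. Des, the intermediate filament desmin, was at 161, 103 and 138 CPM against 4.65, 6.16 and 15.8 CPM, and Lmod1, which nucleates actin in smooth muscle, at 84.7, 55.2 and 67.0 CPM against 5.11, 4.93 and 2.95 CPM. The 2 lower genes were Tpm1, at 991, 704 and 926 CPM against 1334, 1292 and 1253 CPM, and the elastic fibre protein Fbln5, at 144, 20.7 and 84.7 CPM against 1215, 1286 and 778 CPM. Among other smooth muscle genes, chosen after their values were seen, Actg2, gamma smooth muscle actin, was at 220.2, 20.7 and 167 CPM against 0.929, 1.73 and 5.02 CPM, and Ppp1r14a, an inhibitor of myosin phosphatase, at 178, 228 and 203 CPM against 0, 0.246 and 2.07 CPM, both called higher. Cnn1, calponin, had UMIs in 3 of 124 members, Smtnl2 and Kcnmb1 had none, and Myocd, the coactivator of the contractile genes, was at 0, 0 and 1.97 CPM.

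Contractile genes are known targets of serum response factor, which binds the CArG box, a palindrome of CC, 6 bases A or T, and GG. The RefSeq promoters of 24 of the 28 genes of the contractile list were matched (GRCm38.p6, 250 bases before to 50 after a start site), and 3 of the 24 genes (12.5%), Myl6, Myl9 and Vcl, held a CArG box, against 1.81% of all 27025 genes in the table. This strict form was also found in 2 of 10 matched skeletal muscle markers (20%) and 2 of 24 mural transcription factors (8.33%). It was found in 1 of 23 ion channel genes (4.35%) and 0 of 19 pericyte genes. With 1 G or C allowed among the middle 6 bases, 5 of 24 genes (20.8%) held a box, against 11.3% of all genes. This looser form was not particular to contractile genes, since it was found in 3 of 7 matched endothelial markers (42.9%), 4 of 11 haematopoietic markers (36.4%) and 5 of 23 ion channel genes (21.7%). A match is a description of letters, and no box in these 300 bases says nothing of sequence elsewhere. The promoters of Acta2 (chr19:34255324-34255623, minus strand) and Myl9 (chr2:156775214-156775513, plus strand) are shown because both genes were higher in members and also followed Myh11 among members. Capitals mark boxes in the looser form, 84 and 34 bases before the start site in Acta2 and 161 and 99 bases before it in Myl9, of which the first of Myl9 is a strict CArG box.
Acta2: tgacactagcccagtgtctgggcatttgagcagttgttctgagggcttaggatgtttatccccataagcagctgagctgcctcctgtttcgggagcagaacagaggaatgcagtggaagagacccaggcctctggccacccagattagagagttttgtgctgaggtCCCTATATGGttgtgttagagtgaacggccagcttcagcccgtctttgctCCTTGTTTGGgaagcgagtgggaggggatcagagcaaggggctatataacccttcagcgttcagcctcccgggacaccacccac
Myl9: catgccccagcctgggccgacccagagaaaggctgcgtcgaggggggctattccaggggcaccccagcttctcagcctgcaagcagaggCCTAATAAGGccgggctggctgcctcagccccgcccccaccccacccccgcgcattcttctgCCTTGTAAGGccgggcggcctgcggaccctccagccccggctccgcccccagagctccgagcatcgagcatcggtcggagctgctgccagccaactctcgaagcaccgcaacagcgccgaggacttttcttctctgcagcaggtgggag

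Nearly all pericyte genes were higher in members. Of 23 tested, 21 were higher and 0 lower, with a median log2 difference of 2.97. The pore and regulatory subunit of the ATP-sensitive potassium channel of pericytes were both among them. Kcnj8, the pore, was at 788, 883 and 489 CPM in members against 6.51, 3.70 and 9.60 CPM in other Pdgfrb+ cells (log2 difference 6.47 ± 0.30, adjusted p = 1.6e-08). Abcc9, the regulatory subunit, was at 686, 710.5 and 276 CPM against 57.9, 57.9 and 54.4 CPM (log2 difference 3.02 ± 0.21, adjusted p = 6.1e-07). Both had their lowest member value in the Pdgfra-GFP library, a difference that was not tested. Ndufa4l2, a hypoxia-responsive mitochondrial protein, was at 1499, 1262 and 1677 CPM against 7.20, 4.19 and 81.4 CPM (log2 difference 6.54 ± 0.67, adjusted p = 1.4e-05). Cox4i2, a cytochrome oxidase subunit, and Higd1b, a hypoxia-inducible domain protein, were at 389.6, 400.1 and 457 CPM and 50.8, 103 and 526 CPM, against 36.7, 30.3 and 75.8 CPM and 0.929, 1.48 and 1.51 CPM. Ebf1, a transcription factor shared with marrow stroma, was at 2024, 2145 and 1425 CPM against 1056, 1221 and 1043 CPM (log2 difference 0.62 ± 0.19, adjusted p = 0.047), and Steap4, a metalloreductase, at 1059, 1076 and 638 CPM against 309, 315 and 251 CPM (log2 difference 1.51 ± 0.30, adjusted p = 0.0036). Higd1b was uneven among members, since the Pdgfra-GFP library stood above both metaphyseal libraries. Art3 was at 246, 462 and 394 CPM against 3.02, 2.71 and 4.27 CPM. Cspg4, the NG2 proteoglycan used as a pericyte antigen, was at 127, 241 and 177 CPM against 5.58, 6.16 and 18.8 CPM (log2 difference 3.85 ± 0.47, adjusted p = 6.6e-05). The 2 genes tested and not called were Anpep, at 25.4, 27.6 and 5.91 CPM against 5.58, 5.92 and 4.89 CPM, and P2ry14, at 42.3, 55.2 and 43.3 CPM against 32.8, 34.8 and 18.1 CPM.

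Ion channels and calcium handling genes beyond Kcnj8 and Abcc9 held 8 further calls in the higher direction. In all, 10 of 23 tested were higher and 1 lower, with a median log2 difference of 0.66. Kcnk3, an acid-sensitive background potassium channel, was at 84.7, 82.8 and 51.2 CPM in members and 0, 0 and 0.125 CPM in other Pdgfrb+ cells (2 UMIs in all there, adjusted p = 2e-06). Casq2, the calcium store protein calsequestrin, was at 25.4, 69.0 and 92.6 CPM in members and had no UMI in the comparator, which puts it at least 505-fold higher at a floor of 3 counts over the comparator. Atp1b2, a subunit of the sodium pump, was at 144, 276 and 199 CPM against 0, 0.986 and 3.07 CPM (log2 difference 6.62 ± 0.46, adjusted p = 5.5e-07), and the calcium pump of the endoplasmic reticulum, Atp2a2, at 237, 193 and 120.2 CPM against 105, 109.7 and 67.4 CPM. Ano1, the calcium-activated chloride channel of smooth muscle, was at 161, 145 and 102 CPM against 3.25, 4.44 and 5.65 CPM (log2 difference 4.63 ± 0.31, adjusted p = 3.8e-07). The cation channel Trpc6 was at 59.3, 75.9 and 70.9 CPM against 18.4, 12.6 and 6.78 CPM. The sodium-calcium exchanger Slc8a1 was the lower gene, at 0, 0 and 3.94 CPM against 41.1, 43.4 and 17.1 CPM. Cacna1c, the pore of the L-type calcium channel, was at 8.47, 27.6 and 5.91 CPM against 9.76, 9.37 and 4.27 CPM and was not called.

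Vasoactive receptors and cyclic nucleotide genes gave 18 higher and 2 lower of 34 tested, with a median log2 difference of 1.21. Both subunits of the nitric oxide receptor were higher. Gucy1a1 was at 406, 545 and 231 CPM in members against 63.0, 55.7 and 55.0 CPM (log2 difference 2.52 ± 0.19, adjusted p = 9e-07), and Gucy1b1 at 271, 214 and 183 CPM against 22.8, 22.7 and 18.4 CPM (log2 difference 3.26 ± 0.22, adjusted p = 3.8e-07). The kinase that cyclic GMP activates, Prkg1, was at 161, 131 and 69.0 CPM against 32.5, 35.2 and 16.3 CPM, and its calcium store substrate Mrvi1 at 127, 103 and 65.0 CPM against 0, 0 and 0.376 CPM. Rgs4, which like Rgs5 ends signals of G protein-coupled receptors, was at 229, 331 and 193 CPM against 57.4, 63.6 and 10.5 CPM (log2 difference 2.68 ± 0.54, adjusted p = 0.0039). Agtr1a, the angiotensin II receptor, was at 93.2, 103 and 120.2 CPM against 4.18, 5.42 and 6.65 CPM (log2 difference 4.16 ± 0.32, adjusted p = 1.2e-06). Ednra, the endothelin receptor of smooth muscle, differed less, at 135, 248 and 118 CPM against 84.1, 93.2 and 57.4 CPM (log2 difference 0.98 ± 0.22, adjusted p = 0.0077). The alpha adrenergic receptors Adra2a and Adra1b were higher, at 102, 62.1 and 33.5 CPM and 8.47, 20.7 and 25.6 CPM against 9.06, 5.67 and 4.14 CPM and 0.232, 1.23 and 1.51 CPM. Among the lower genes was Npr2, the receptor of C-type natriuretic peptide, at 16.9, 13.8 and 11.8 CPM against 31.4, 36.5 and 27.6 CPM.

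Genes of the Notch pathway went both ways. Of 24 genes tested 8 were higher and 3 lower, with a median log2 difference of 0.06. Dll1, Dll4 and Mfng had no UMI in members, and their floor of 3 counts lies above the comparator. Putting them at this floor can only raise the median, so the 0.50 it gives is an upper limit. Notch3 was at 788, 924 and 497 CPM in members against 129.6, 146 and 107 CPM (log2 difference 2.37 ± 0.21, adjusted p = 4.8e-06), and 111 of 124 members had a Notch3 UMI. Nrip2, a nuclear receptor partner, was at 84.7, 124 and 197 CPM against 10.2, 9.61 and 5.52 CPM (log2 difference 4.25 ± 0.39, adjusted p = 5.4e-06). Among targets, Nrarp, a feedback inhibitor, was at 76.2, 62.1 and 72.9 CPM against 1.39, 0.246 and 0.376 CPM (log2 difference 6.91 ± 0.42, adjusted p = 2.1e-07), and the repressor Heyl at 110.1, 241 and 209 CPM against 58.6, 58.4 and 86.7 CPM (log2 difference 1.32 ± 0.25, adjusted p = 0.003). Hes1 was not called, at 398, 421 and 211 CPM against 445, 546 and 235 CPM. The ligand Jag1 was higher, at 152, 82.8 and 76.8 CPM against 31.8, 33.3 and 27.8 CPM, and so was the atypical ligand Dlk1, at 178, 41.4 and 84.7 CPM against 0.232, 0 and 5.77 CPM. Notch2, Rbpj (the DNA-binding partner of all Notch receptors) and Lfng (which modifies the receptors with sugars) were lower. Notch2 was at 16.9, 13.8 and 17.7 CPM against 42.8, 47.1 and 45.5 CPM (log2 difference -1.52 ± 0.34, adjusted p = 0.0083). Dll4 had no UMI in members and was at 75.6, 70.0 and 89.2 CPM in endothelial cells.

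Mural transcription factors gave 18 higher and 2 lower of 30 tested, with a median log2 difference of 0.75. The higher factors with the most UMIs per sum included Ebf1, above, and Epas1, the hypoxia-inducible factor of vessels, at 559, 759 and 437 CPM against 351, 387 and 272 CPM (log2 difference 0.65 ± 0.18, adjusted p = 0.026). Prrx1, a factor of limb mesenchyme, was at 669, 689.8 and 289.6 CPM against 263, 264 and 220.1 CPM, and Id1, an inhibitor of helix-loop-helix factors, at 356, 303 and 315 CPM against 76.9, 57.7 and 110.4 CPM. Nr2f2, the nuclear receptor COUP-TFII, was at 406, 221 and 122 CPM in members against 20.2, 19.97 and 9.98 CPM (log2 difference 3.70 ± 0.21, adjusted p = 9.8e-08). The T-box factors Tbx2 and Tbx3 were at 322, 331 and 142 CPM and 67.7, 34.5 and 17.7 CPM, against 28.8, 25.6 and 24.8 CPM and 2.79, 1.73 and 1.13 CPM, and Tbx18, a lineage marker of mural cells, at 84.7, 41.4 and 49.3 CPM against 15.6, 12.8 and 16.7 CPM. The lower pair was Foxc1 and Ebf3, both needed by the Cxcl12-rich stromal cells of marrow. Foxc1 was at 76.2, 103 and 82.8 CPM against 536, 537 and 258 CPM (log2 difference -2.23 ± 0.22, adjusted p = 1.1e-05), and Ebf3 at 144, 124 and 41.4 CPM against 552, 553 and 177 CPM (log2 difference -2.19 ± 0.19, adjusted p = 3.2e-06). The related Foxc2 and Ebf2 went the other way, at 76.2, 69.0 and 51.2 CPM and 33.9, 82.8 and 59.1 CPM against 17.4, 21.9 and 19.7 CPM and 19.3, 24.2 and 17.0 CPM, both called higher. The count of higher factors was 10 with no block and 11 without metaphyseal replicate 1.

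**Figure D2:**
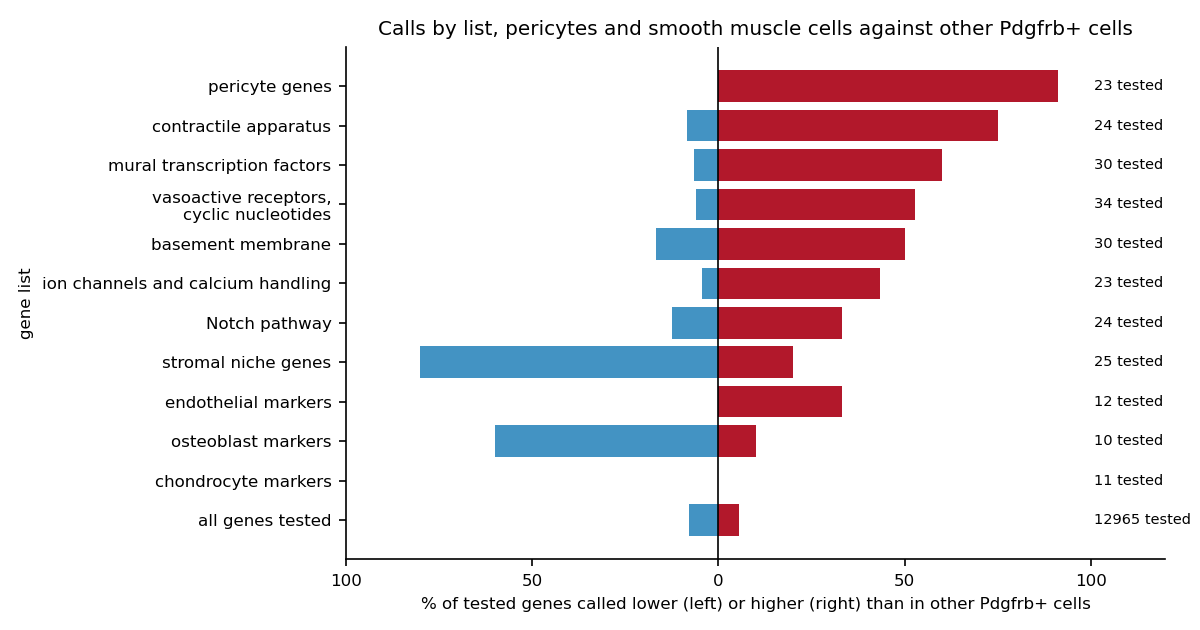
Share of the tested genes of each list called higher (right, red) or lower (left, blue) in members than in other Pdgfrb+ cells, in percent, with all genes tested at the bottom. Pericyte genes have 21 of 23 called higher, stromal niche genes 20 of 25 called lower, and all genes 5.58% and 7.81%.

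Stromal niche genes were mostly lower. Of 25 tested, 20 were lower and 5 higher, with a median log2 difference of -2.66. Cxcl12, the chemokine that holds stem cells in marrow, was at 1067, 297 and 967 CPM in members against 20195, 20585 and 15662 CPM (log2 difference -4.87 ± 0.37, adjusted p = 1.1e-06). In metaphyseal replicate 1 a single member held 122 of the 126 Cxcl12 UMIs, and the other 18 members were at 36.9 CPM together. Lpl, lipoprotein lipase, was at 1355, 917 and 1411 CPM against 5572, 5557 and 4381 CPM (log2 difference -2.24 ± 0.22, adjusted p = 1.2e-05), Hp, haptoglobin, at 229, 69.0 and 274 CPM against 5623, 5728 and 3788 CPM, and Igfbp5, which binds insulin-like growth factors, at 1253, 524 and 518 CPM against 5194, 5169.8 and 2739 CPM. For Igfbp5, 1 member of metaphyseal replicate 1 held 84 UMIs, and the other 18 members were at 590.2 CPM. Kitl, the stem cell factor, was at 381, 310.4 and 110.3 CPM against 1436, 1492 and 455 CPM (log2 difference -2.22 ± 0.25, adjusted p = 3.8e-05), and Csf1, the macrophage growth factor, at 76.2, 41.4 and 39.4 CPM against 404, 416 and 247 CPM. Pdgfra was at 0, 13.8 and 9.85 CPM against 207, 239 and 78.6 CPM (log2 difference -3.95 ± 0.48, adjusted p = 6.6e-05), with a UMI in 6 of 124 members. The angiopoietins were divided: Angpt1, which activates the receptor Tek on endothelium, was lower at 50.8, 48.3 and 21.7 CPM against 185, 199 and 107 CPM, and Angpt2, its context-dependent antagonist, was higher at 161, 117 and 154 CPM against 41.1, 32.3 and 41.3 CPM (log2 difference 1.80 ± 0.20, adjusted p = 3.7e-05). The other 4 higher genes were Thy1, Postn, Nes and Ngfr. Ngfr (CD271), often used to isolate human marrow stromal cells, was at 42.3, 34.5 and 41.4 CPM in members and 0, 0 and 0.125 CPM in the comparator, and Thy1 (CD90) at 186, 269 and 408 CPM against 0.232, 0.493 and 9.66 CPM.

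Against the Lepr Cxcl12 stromal cells, which overlap with the first comparator, 1790 of 10985 genes (16.3%) were called, 810 higher (7.37%) and 980 lower (8.92%). The lists gave 18 of 24 contractile genes higher and 2 lower, 21 of 24 pericyte genes higher and 0 lower, and 17 of 22 niche genes lower and 5 higher, gate genes left out. Both comparators share the members, so these counts are not a second observation. Col1a1 and Col2a1 were called lower in this comparison, and 6 of 16 cell cycle genes were called higher, Cenpf, Mki67, Ccnb2, Tpx2, Cdk1 and Birc5. These calls rest on few cells, since Mki67 had UMIs in 11 members, with 12 of its 50 UMIs in 1 cell, and Cenpf in 14, with 21 of 65 in 1 cell.

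Basement membrane and matrix receptor genes were compared with both neighbours. Against other Pdgfrb+ cells, 15 of 30 tested were higher and 5 lower, with a median log2 difference of 0.63. Col4a1, the main collagen of basement membranes, was at 3608, 4415 and 1945 CPM in members, 781, 871 and 429 CPM in other Pdgfrb+ cells and 2077, 2106 and 1448 CPM in endothelial cells. Its log2 difference was 2.12 ± 0.13 (adjusted p = 2.6e-07) from the former and 0.59 ± 0.13 (adjusted p = 0.0039) from the latter. Col18a1, the source of endostatin, was at 1355, 1076 and 753 CPM, 16.3, 18.2 and 18.1 CPM and 349, 343 and 484 CPM in the same order (log2 difference 5.76 ± 0.24 from other Pdgfrb+ cells, adjusted p = 6e-09, and 1.24 ± 0.20 from endothelium, adjusted p = 0.00036). Col4a2, the chain partner of Col4a1, was at 1728, 2173 and 1032 CPM against 441, 501 and 245 CPM in other Pdgfrb+ cells, and the integrin chain Itgb1 at 974, 910.5 and 447 CPM against 566, 601 and 292 CPM, both called higher. Among the lower genes, Lamb1, a laminin chain, was at 93.2, 166 and 94.6 CPM against 235, 246 and 119 CPM, and Smoc1, a calcium-binding matrix protein, at 8.47, 0 and 9.85 CPM against 86.2, 88.0 and 47.2 CPM. Itga7, a laminin receptor of muscle, was at 84.7, 62.1 and 96.5 CPM in members, 0.929, 0.493 and 0.188 CPM in other Pdgfrb+ cells and 0, 0.525 and 0.72 CPM in endothelial cells. Members and endothelium differed in the other direction for Hspg2 (perlecan), at 93.2, 82.8 and 65.0 CPM against 650.4, 665 and 438 CPM (log2 difference -3.02 ± 0.20, adjusted p = 1.4e-07), and for Nid2, at 33.9, 34.5 and 27.6 CPM against 156, 159.5 and 152 CPM (log2 difference -2.48 ± 0.21, adjusted p = 1.2e-06). Both of these were also lower in members than in other Pdgfrb+ cells. Itga6 and Lama5 stood between the neighbours, since each was called higher than in other Pdgfrb+ cells and lower than in endothelial cells. Vwa1, called higher against other Pdgfrb+ cells at 0, 6.90 and 19.7 CPM against 3.49, 3.45 and 3.95 CPM, was at a log2 difference of -0.33 at the stricter gate of 20 Rgs5 or 10 Myh11 UMIs and of -0.0048 without the Pdgfra-GFP library.

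**Figure D3:**
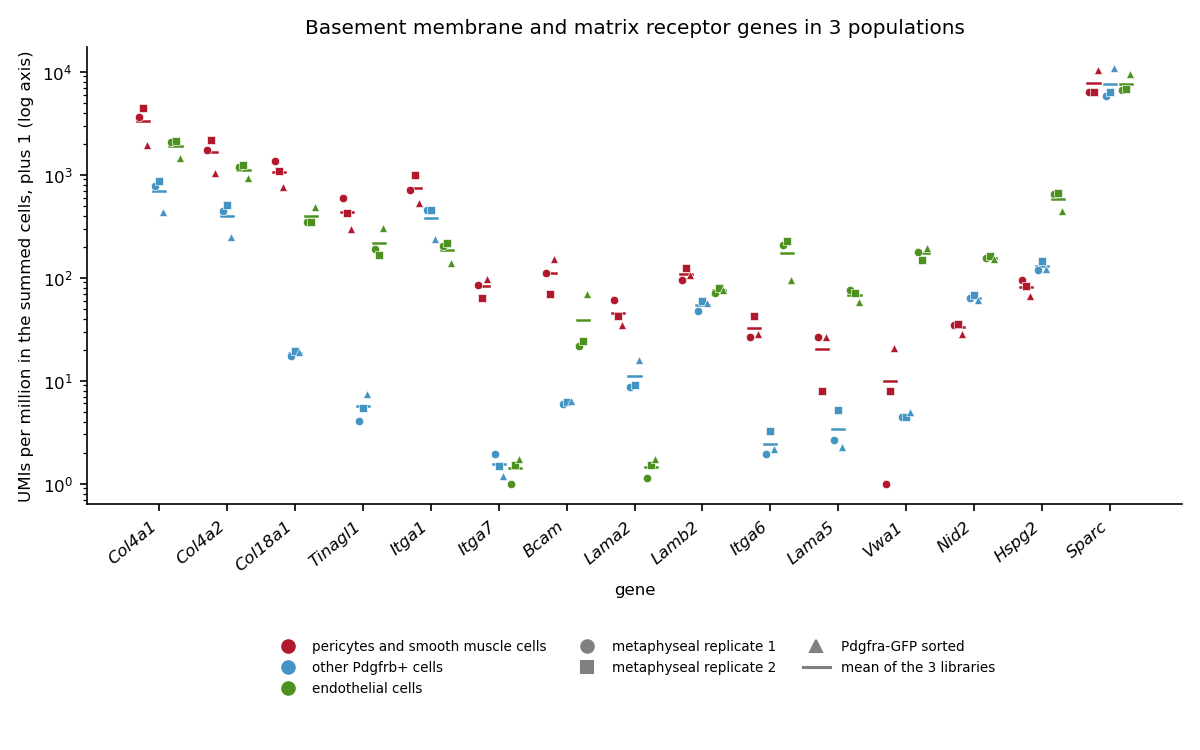
Levels of 15 basement membrane and matrix receptor genes (CPM in the summed cells plus 1, log axis) in the 3 populations, one point per library and a bar at the mean. Itga7 stands apart in members, while Hspg2, Nid2 and Vwa1 stand highest in endothelial cells.

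Against endothelial cells, 3246 of 12966 genes (25.0%) were called, 1388 higher (10.7%) and 1858 lower (14.3%). All 12 endothelial markers tested were lower in members. Pecam1 and Cdh5 were limited in members and required in endothelial cells, so the gates favoured this outcome. Of the 3 mural markers Acta2 and Tagln were higher, and Mcam was not called, at 279, 228 and 315 CPM in members and 297, 277 and 189 CPM in endothelial cells (log2 difference -0.02 ± 0.22, adjusted p = 0.98). Cldn5, the tight junction protein of endothelium, had no UMI in 124 members, which at a floor of 3 counts allows up to 2.42% of members with a Cldn5 UMI and sets no limit on cells that express it below this depth. It was at 1507, 1294 and 1510.3 CPM in endothelial cells. Tek, the angiopoietin receptor, also had no UMI in members, and Kdr, the receptor of vascular endothelial growth factor, was at 8.47, 0 and 0 CPM. The 10 genes with the largest differences in the higher direction were Olfr558, Higd1b, Actg2, H2-M9, Kcnk3, Doxl1, Acta2, Tbx3os1, Trarg1 and Rasl12. The 10 in the lower direction, all at 0 UMIs in members, were Cldn5, Cd34, Gimap4, Depp1, Adgrl4, Upp1, Ramp3, Rbp7, Cyyr1 and Robo4, at least 39.1- to 369-fold lower. Notch genes divided between the 2 cell types, with 7 of 24 higher and 9 lower in members. Jag1 and Notch3 were higher in members, and Dll4, Dll1, Jag2, Notch1, Notch4, Mfng and Lfng in endothelial cells. Endothelin receptors were divided too, Ednra at 135, 248 and 118 CPM in members and 1.14, 0.7 and 2.88 CPM in endothelium, Ednrb at 0, 0 and 1.97 CPM in members and 112, 93.9 and 54.7 CPM in endothelium. Kcnj8 and Abcc9 were not confined to members, since endothelial cells held 200.3, 184 and 186 CPM and 248, 277 and 156 CPM, with log2 differences of 1.71 ± 0.24 (adjusted p = 0.00013) and 1.04 ± 0.20 (adjusted p = 0.0018).

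Some genes of endothelium were high in members all the same. Fabp4, a fatty acid carrier of capillary endothelium and fat, was at 5496, 3642 and 5704 CPM in members, 46.0, 51.0 and 112 CPM in other Pdgfrb+ cells and 5547, 4987 and 8609 CPM in endothelial cells. Its log2 difference from other Pdgfrb+ cells was 6.11 ± 0.20 (adjusted p = 1.2e-09), and 102 of 124 members had a UMI. The related carrier Fabp5, which the study uses as a marker of septoclasts, was at 1922, 1283 and 1759 CPM in members. Other Pdgfrb+ cells held 49.7, 89.0 and 78.8 CPM and endothelial cells 77.3, 91.2 and 111 CPM. The log2 difference of Fabp5 from other Pdgfrb+ cells was 4.42 ± 0.23 (adjusted p = 5.4e-08). Cells with an Sstr2 UMI were left out of members and other Pdgfrb+ cells, so no septoclast level stands beside these. Esam, an adhesion molecule of junctions, was at 161, 166 and 274 CPM against 3.02, 2.71 and 1.38 CPM in other Pdgfrb+ cells, and Emcn, a sialomucin of sinusoids, at 254, 186 and 74.9 CPM against 8.36, 9.37 and 3.07 CPM. With Tie1, 4 of the 12 endothelial markers tested were higher than in other Pdgfrb+ cells and 0 lower. In each member library the summed level of all 14 endothelial markers was 5962, 4035 and 6143 CPM, of which Fabp4 gave the most UMIs, against 18523, 17195 and 20213 CPM in endothelial cells. Near-empty droplets, with at most 100 UMIs, carried Fabp4 at 2267, 1795 and 337 CPM, Emcn at 657, 617 and 22.0 CPM and Cldn5 at 480, 448 and 29.5 CPM. The members thus exceeded the near-empty droplets for Fabp4, stood below them for Cldn5, and stood below them for Emcn in the metaphyseal libraries. The share of members with a Fabp4 UMI was 89.5%, 90.0% and 78.8%, against 17.8%, 16.3% and 14.9% of other Pdgfrb+ cells at median depths of 5888, 5964 and 4243.5 UMIs.

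Markers of other cells were present at levels that differed between libraries. Osteoblast markers summed to 1372, 862 and 8892 CPM in members and 12722, 11772 and 23616 CPM in other Pdgfrb+ cells, with Col1a1 holding the most UMIs of the 10 in members. Col1a1 was at 627, 531 and 5546 CPM in members. In the Pdgfra-GFP library 1 member held 1261 of the 2815 Col1a1 UMIs, and the other 84 members were at 3147 CPM. Chondrocyte markers summed to 50.8, 27.6 and 625 CPM in members, and haematopoietic and erythroid markers to at most 317 and 579 CPM. Bglap, osteocalcin, was at 25.4, 20.7 and 912 CPM in members and 3255, 5201 and 23891 CPM in near-empty droplets, and Col2a1, the collagen of cartilage, at 16.9, 13.8 and 319 CPM and 774, 972 and 6885 CPM. Of the tested markers, those higher and lower than in other Pdgfrb+ cells numbered 1 and 6 of 10 for osteoblasts, 0 and 0 of 11 for chondrocytes, 0 and 1 of 8 for haematopoietic cells and 0 and 1 of 6 for erythroid cells. They numbered 3 and 2 of 8 for fibroblasts and tendon, 1 (Des) and 1 of 3 for skeletal muscle, 0 and 2 of 3 for Schwann cells, 2 and 1 of 7 for septoclasts and 1 (Cenpf) and 0 of 16 for the cell cycle. Beside Des, Cenpf and Fabp5, the higher genes were Col22a1, Gsn, S100a4, Ly6c1 and Cotl1. Among the lower ones were Spp1, Ibsp, Alpl, Dcn, Lum, Fcer1g, Hbb-bs, Cdh15, S100b, Ncam1 and Fbln1. The part of these cells and of free RNA in the differences above was not tested.

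By the rule for naming genes, the 10 genes with the largest fitted log2 differences above other Pdgfrb+ cells were Olfr558, Casq2, H2-M9, Sgip1, Sncg, Kcnk3, Serpini1, Gja4, Ngfr and Mrvi1. Olfr558 and Casq2 had no UMI in the comparator and were at least 1762- and 505-fold higher at a floor of 3 counts over the comparator. Sgip1, Kcnk3, Ngfr and Sncg had 1, 2, 2 and 3 UMIs there, too few for a fold. Olfr558, an olfactory receptor gene, was at 220.2, 214 and 219 CPM in members, and no UMI was found in other Pdgfrb+ or endothelial cells. Gja4, the gap junction protein connexin 37, was at 271, 255 and 433 CPM against 0.697, 1.48 and 0.816 CPM (log2 difference 8.67 ± 0.46, adjusted p = 5.4e-08). Sncg, gamma-synuclein, was at 102, 62.1 and 102 CPM against 0.232, 0 and 0.125 CPM. H2-M9 belongs to a multigene family whose reads can be shared, so its value of 50.8, 41.4 and 577 CPM is uncertain. The 10 genes with the largest differences in the lower direction, 9530013L04Rik, Mro, Runx3, Bcat1, Ksr1, Syt6, Gm15222, Gzme, Plscr2 and Atp6v1c2, had no UMI in members and were at least 5.17- to 8.14-fold lower, the bound that 3 counts over the members allow. The same rule against the Lepr Cxcl12 stromal cells named Olfr558, Casq2, H2-M9, Kcnk3, Mrvi1, Sgip1, Sncg, B130024G19Rik, Tbx3os1 and Tmem273 in the higher direction. In the lower direction it named Nos1ap and 9 of the genes just listed, all but Gzme. Runx3, a transcription factor of the Runt family, was at 34.6, 34.5 and 22.1 CPM in other Pdgfrb+ cells.

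Contractile genes varied widely among members. Of the 124 members, 70 had an Acta2 UMI and 54 had none, and the most any member held was 185. Per library, the Acta2 level of single members ran from 0 through a median of 136 to 21369 CPM in metaphyseal replicate 1, from 0 through 155 to 8385 CPM in metaphyseal replicate 2, and from 0 through 282 to 33126 CPM in the Pdgfra-GFP library. Across the members of a library, Acta2 went with Tagln (Pearson's r on log2(CPM + 100) of 0.88, 0.71 and 0.87 over 19, 20 and 85 cells) and with Myl9 (0.92, 0.92 and 0.85). It ran weakly against Kcnj8 (-0.48, -0.17 and -0.27), and stood near 0 with Notch3 (-0.07, -0.10 and 0.06). The summed contractile and pericyte lists ran against each other in the metaphyseal libraries (-0.42 and -0.32). In the Pdgfra-GFP library the sign was the other way (0.32, Spearman's rho 0.08). Cells of 1 library share its depth and its free RNA, and these values describe the cells with no test.

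**Figure D4:**
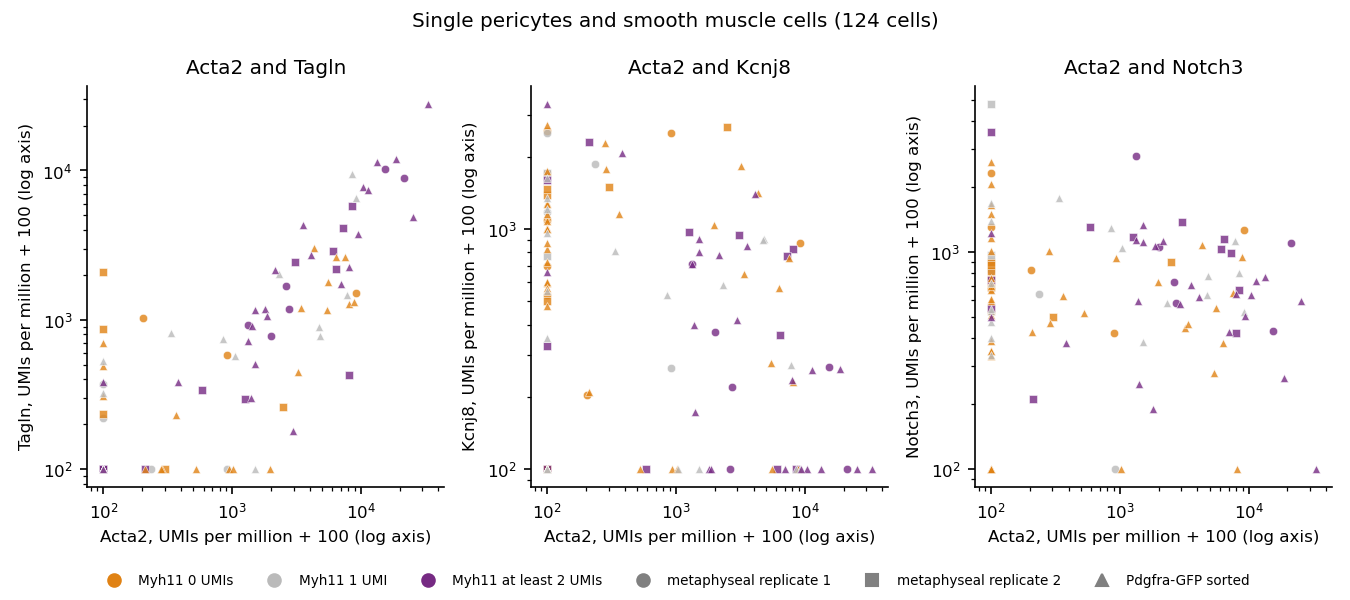
Tagln, Kcnj8 and Notch3 against Acta2 in the 124 members (CPM of the cell plus 100, both axes log), coloured by Myh11 UMIs and shaped by library. Points at the left edge have no Acta2 UMI, Tagln rises with Acta2, and Notch3 shows no trend with Acta2.

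Myh11, the gene that sets smooth muscle apart from pericytes, had 0 UMIs in 9, 6 and 44 members, at least 2 in 6, 12 and 23, and at least 5 in 4, 3 and 8. The members with at least 2 Myh11 UMIs were compared with those with 0, a threshold set after the data were seen because the first one, 5 against at most 1, left fewer than 5 cells on a side in both metaphyseal libraries. At that first threshold Acta2 was at 11007, 5912 and 9302 CPM against 1074, 314 and 1765 CPM, and Kcnj8 at 231, 132 and 293 CPM against 1114, 1257 and 515 CPM. The median depth was 6649, 7944.5 and 6155 UMIs in Myh11-positive and 6190, 6637.5 and 5485.5 in Myh11-negative members. An Acta2 UMI was found in 36 of 41 Myh11-positive and 22 of 59 Myh11-negative members. Of the 13 Pdgfra-GFP members just inside the Rgs5 limit, 11 were among the 44 Myh11-negative ones, and 7 of these had no UMI of Acta2, Tagln, Myl9, Kcnj8, Notch3 or Fabp4.

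In this comparison edgeR called 40 of 1216 genes (3.29%), 23 higher (1.89%) and 17 lower (1.40%) in Myh11-positive members. With no block on the library it called 0, with 70 genes at an unadjusted p under 0.05 against 157 with the block. DESeq2 with the block called 9, of which 8 were higher and 1, Spp1, was lower, so no other gene given below as lower in Myh11-positive members was called by both tools. Of 15 contractile genes tested 6 were higher and 0 lower. Acta2 was at 8693, 3434 and 5639.7 CPM in Myh11-positive and 1495, 401 and 1578 CPM in Myh11-negative members (log2 difference 2.35 ± 0.21, adjusted p = 1.6e-07). Tagln was at 4765, 1222 and 2865 CPM against 452, 477 and 431 CPM (log2 difference 2.58 ± 0.27, adjusted p = 1.1e-06), and Myl9 at 3017, 808 and 2911 CPM against 374, 251 and 816 CPM (log2 difference 2.13 ± 0.24, adjusted p = 3.5e-06). The Myh11-negative Acta2 level rested on 1 cell in each metaphyseal library, since without the cell with the most UMIs it was 139, 29.8 and 1346 CPM. The groups did not overlap for Acta2 and Tagln, while for Myl9 the lowest Myh11-positive library lay just under the highest Myh11-negative one. This describes the values, since the share of the 1216 genes without overlap was not counted. Tpm1, which was lower in members as a whole than in other Pdgfrb+ cells, was higher on this side, at 1988, 808 and 1416 CPM against 590.2, 427 and 568 CPM (log2 difference 1.33 ± 0.22, adjusted p = 0.0005).

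Outside the contractile list, Eln, elastin of the arterial wall, was at 1365, 340.2 and 195 CPM against 39.3, 0 and 41.9 CPM (log2 difference 3.41 ± 0.49, adjusted p = 0.00011). Mustn1, a gene of muscle, was at 790.2, 159 and 519.8 CPM against 0, 25.1 and 111 CPM (log2 difference 2.87 ± 0.47, adjusted p = 0.00057). Nrip2, from the Notch list, was at 239, 159 and 344 CPM against 0, 25.1 and 57.2 CPM (log2 difference 2.80 ± 0.45, adjusted p = 0.0005). The calcium pump Atp2a2 was at 503, 244 and 162 CPM against 98.4, 50.2 and 87.7 CPM (log2 difference 1.50 ± 0.39, adjusted p = 0.03). Fabp4 and Fabp5 were both called higher, at 8118, 4008 and 9369 CPM and 2802, 1626 and 2482 CPM against 3639, 3688 and 3385 CPM and 1259, 803 and 1509.5 CPM. The rule also named Mgst3, Cavin1, Prss23 and Col1a1 in this direction. For Col1a1 the level in the Pdgfra-GFP library, 16185 CPM, was 8771 CPM without the member that held 1261 UMIs, against 968 CPM on the Myh11-negative side.

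On the Myh11-negative side, Pdgfrb was higher, at 1121, 1305 and 579 CPM against 479, 829 and 325 CPM on the positive side (log2 difference -0.90 ± 0.21, adjusted p = 0.017). So was Vcam1, an adhesion molecule of marrow stroma, at 885, 903 and 465 CPM against 359, 340.2 and 318 CPM (log2 difference -1.04 ± 0.25, adjusted p = 0.019). Trf, transferrin, was at 256, 577 and 560.4 CPM against 47.9, 234 and 175 CPM (log2 difference -1.63 ± 0.32, adjusted p = 0.004), and Mt1, a metal-binding metallothionein, at 177, 502 and 690.0 CPM against 71.8, 159 and 123 CPM (log2 difference -2.05 ± 0.35, adjusted p = 0.00079). Other genes named by the rule were Spp1, Plxdc2, Cp, Nupr1, Apoe, Selenop and H2-D1. Spp1 and Cxcl12 rested on few cells, since without the cell with the most UMIs in each library, the Myh11-negative level of Spp1 fell from 452, 100.4 and 2421 CPM to 72.9, 57.4 and 720 CPM, against 47.9, 95.7 and 331 CPM on the Myh11-positive side. Without these cells metaphyseal replicate 2 was thus in the other direction for Spp1. The Myh11-negative level of Cxcl12 fell from 2420, 25.1 and 1308 CPM to 24.3, 0 and 751 CPM. On the Myh11-positive side Cxcl12 was at 47.9, 202 and 292 CPM. Metaphyseal replicate 2 was thus in the other direction for Cxcl12 with all cells, and both metaphyseal libraries were without the cells with the most UMIs. Of 17 pericyte genes tested 0 were higher and 1, Pdgfrb, was lower on the Myh11-positive side. Kcnj8 was at 192, 680.3 and 429 CPM against 925, 1229 and 515 CPM (log2 difference -0.90 ± 0.27, adjusted p = 0.071) and Notch3 at 862, 914 and 526 CPM against 866, 677 and 400.3 CPM (log2 difference 0.26 ± 0.22, adjusted p = 0.77).

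**Figure D5:**
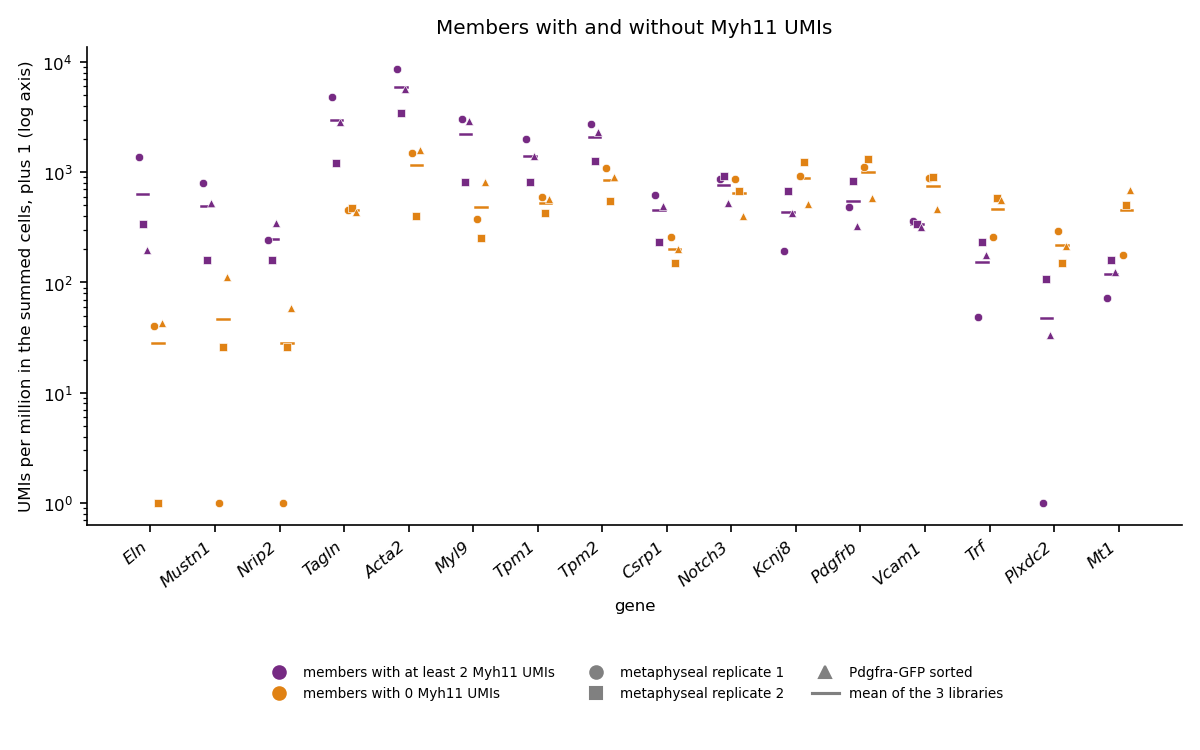
Levels of 16 genes (CPM in the summed cells plus 1, log axis, so that 0 plots at 1) in members with at least 2 Myh11 UMIs and with none, one point per library and a bar at the mean. Contractile genes, Eln, Mustn1 and Nrip2 stand higher with Myh11, Pdgfrb, Vcam1, Trf, Plxdc2 and Mt1 lower, and neither Notch3 nor Kcnj8 was called.

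The sorted and the metaphyseal members were not tested against each other, and values are given side by side. Abcc9, Gucy1a1, Col4a1 and Pdgfrb were at 276, 231, 1945 and 498 CPM in the Pdgfra-GFP members and in the metaphyseal libraries at no less than 686, 406, 3608 and 898 CPM. Higd1b and Thy1 were at 526 and 408 CPM in the Pdgfra-GFP members and at no more than 103 and 269 CPM in the metaphyseal libraries. The mitochondrial share of the median member was 4.01%, 4.81% and 1.07%. Cell cycle genes summed to 1668, 779 and 550 CPM in members and 386, 265 and 648 CPM in other Pdgfrb+ cells, so that members were above the comparator in the metaphyseal libraries and below it in the Pdgfra-GFP library.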

How the data were processed

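The deposited values are UMI counts, neither normalized nor filtered, that the authors made for every barcode on the list with bcl2fastq, fastp 0.20 and STAR 2.7.3a (STARsolo) on mm10 with Gencode M23 annotation and the H2B-GFP sequence added. Cells needed 1500 genes (metaphyseal) or 1000 genes (sorted), at most 15% mitochondrial and at most 30% ribosomal protein UMIs. Doublets called by Scrublet (scanpy 1.11.5) were kept and removed as an alternative. The counts were summed per library and population (at least 10 cells, or 5 for the Myh11 comparison) and expressed as CPM of the sum. Levels were tested only within a gene.

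Sums were tested with edgeR 4.0.16 (R 4.3.3), TMM normalization, filterByExpr, glmQLFit and glmQLFTest with the library as a block, and Benjamini-Hochberg adjustment over all genes at 0.05. Members, other Pdgfrb+ and endothelial cells shared 1 fit. The sums of 1 library come from the same cell suspension, which is where the pairing comes from. The deviations of members and other Pdgfrb+ sums from their means correlated at 0.15, 0.14 and 0.38 across genes in the 3 libraries, and those of members and endothelial sums at 0.12, 0.16 and 0.32. The genes named were, per comparison, up to 10 in each direction with the largest difference among those called, in the same direction in every library and at 20 CPM or more in the higher population, gate genes left out, with up to 4 of the most abundant called genes of a list in each direction. Other genes of the lists were chosen for their roles after their values were seen. Alternatives were DESeq2 1.42.0, its size factors, no filter on low counts, no block, other gates and limits, and leaving out each library. The members and the 19 gene lists were chosen with earlier results of these data known. The comparison planned at 5 or more against at most 1 Myh11 UMIs could not be fitted, and 2 or more against 0 was chosen after seeing the data. Floors are 3 counts over the group, intervals are exact (Clopper-Pearson) at 95%, and both cover counting error only. The edgeR fits against other Pdgfrb+ cells and between the Myh11 classes were tested on simulated data. Promoters are from RefSeq (GRCm38.p6). Columns of other samples numbered 0. Values of a few genes of the lists are not reported here.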

Additional observations from a re-analysis of the deposited data

Results flagged for a closer look

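For 3 of the called genes in the gene lists, gate genes left out, the difference between members and other Pdgfrb+ cells had one sign in both metaphyseal libraries and the opposite sign in the Pdgfra-GFP library. The difference between the libraries was not tested. Cenpf, a gene of dividing cells, was 225.3 and 168.0 CPM higher in members of metaphyseal replicates 1 and 2, and the difference was -0.887 CPM in the Pdgfra-GFP library. Col22a1, a collagen of tissue junctions, differed by -9.76 and -15.8 CPM in the metaphyseal libraries, where members had no UMI, and by 97.0 CPM in the Pdgfra-GFP library. Ly6c1 differed by -3.95 and -2.71 CPM in the metaphyseal libraries, again with no UMI in members, and by 45.4 CPM in the Pdgfra-GFP library. Members were 19 and 20 cells in the metaphyseal libraries, where a floor of 3 counts is 25.4 and 20.7 CPM.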

How the results depend on the processing

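Without the replicate block, that is, without pairing the sums of one library, the number of genes called fell from 1736 to 1051 against other Pdgfrb+ cells, with 10 mural transcription factors higher in place of 18, from 1790 to 1170 against Lepr Cxcl12 stromal cells, and from 40 to 0 between Myh11-positive and Myh11-negative members, where the 6 contractile genes were all lost. Leaving out 1 library at a time gave 1034 to 1261 genes against other Pdgfrb+ cells, with 11 to 13 mural transcription factors higher (11 without metaphyseal replicate 1), 1193 to 1521 against Lepr Cxcl12 stromal cells, 2089 to 2362 against endothelial cells, and 23 to 81 in the Myh11 comparison. That last comparison called 9 genes with DESeq2 and 99 with no filter on low counts. Vwa1 turned to -0.331 (log2) at the stricter gate and ranged from -0.00477 without the Pdgfra-GFP library to 2.07 without metaphyseal replicate 1, and Klf4 ranged from -0.162 without the Pdgfra-GFP library to 1.63 without metaphyseal replicate 2. At the stricter gate members were 0.587% of the Pdgfra-GFP library. Against other Pdgfrb+ cells 41.6% of calls were in the higher direction, 55.8% with DESeq2 and 49.1% with its size factors, and the median of all genes moved to -0.58 with no filter. Of 1633 pairs of a named gene and an alternative in that comparison, 1515 kept direction and call, 115 lost the call and 3 reversed. Calls over all genes in that comparison were less stable. With 1 library left out, 58.0 to 63.9% of the 1736 calls were kept. Of these 1736, 21 had the other sign at the stricter gate and 20 without the Pdgfra-GFP library. The Myh11 comparison at a mitochondrial limit of 5% was not run, since fewer than 2 libraries held enough cells on both sides. The depth of 124 cells limits the lower calls, since a gene absent from members cannot be placed below 3.89 CPM.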
